A study of Mus musculus with 15 samples.

Results

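Expression levels of 10 genes of bile acid synthesis and transport were followed in the livers of female and male mice with and without the estrogen receptor gene *Esr1*. The 10 genes were chosen by name among the 55573 genes of the deposited count table: *Cyp7a1*, *Cyp8b1*, *Cyp27a1*, *Cyp7b1*, *Cyp39a1*, *Baat*, *Slc10a1*, *Abcb11*, *Nr1h4* and *Nr0b2*. They were chosen by their function, with earlier results of these data known. All 10 were found and all 10 were among the 17655 genes with enough counts to be tested.

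The mice were 8 weeks old and of the strain B6N(Cg)-Esr1tm4.2Ksk/J. Each liver gave 1 library, and the groups were 3 wild type (WT) females, 3 WT males, 5 females and 4 males homozygous for the *Esr1* knockout (ESR1KO). The WT mice were littermates of crosses between heterozygotes. The knockout removes exon 3 in every tissue from conception, so a liver effect cannot be told apart from effects of the pituitary, the gonads or the raised testosterone level that the study describes in both sexes. In whole liver RNA, fewer cells of a type and less RNA per cell cannot be told apart either.

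Bile acids are made from cholesterol in hepatocytes, mainly by the classic route that starts with CYP7A1 and branches to cholic acid through CYP8B1. An alternative route starts with the sterol side chain hydroxylase CYP27A1 and continues with the oxysterol hydroxylase CYP7B1, and CYP39A1 is another oxysterol hydroxylase. BAAT joins the acids to taurine or glycine, ABCB11 pumps the salts into bile, and SLC10A1 takes them up again from portal blood. The bile acid receptor NR1H4 (FXR) induces *Nr0b2* (SHP), whose protein represses synthesis genes, and induces *Abcb11*.

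Levels are given as CPM, counts scaled to a common library size with TMM factors (the usual CPM). Total counts lay between 27799061 and 78624766 per library, and every member had at least 309 counts in every library. Counting error is therefore mostly small beside the spread between mice. Unless stated otherwise, a difference passed at an adjusted p under 0.05 in edgeR's quasi-likelihood F test over all 17655 genes, and ± is the SD over the mice of a group. *Esr1* itself was at 81.9 ± 6.79 CPM in WT females (n = 3) and 36.1 ± 14.1 in WT males (n = 3), against 13.1 ± 4.01 in ESR1KO females (n = 5) and 11.8 ± 3.35 in ESR1KO males (n = 4). It fell in both sexes, by 2.64 on the log2 scale in females (adjusted p = 4.47e-06) and by 1.62 in males (adjusted p = 0.00445). The libraries had the profile of hepatocytes: the 7 hepatocyte markers examined summed to between 93279 and 123559 CPM, with none at 0. The 7 cholangiocyte markers summed to between 44.2 and 72.4 CPM in WT and between 60.3 and 119 CPM in ESR1KO livers, with none at 0. Pericentral hepatocyte markers (8 genes) summed to between 7922 and 9977 CPM in WT females and between 4216 and 8744 CPM in ESR1KO females, and periportal markers (7 genes) to between 4356 and 6079 and between 3310 and 4363 CPM. In WT and ESR1KO males the pericentral sums were 7527 to 8491 and 6610 to 7871 CPM, the periportal sums 4806 to 5704 and 2968 to 5221 CPM. The pericentral *Glul* and *Cyp2e1* were lowest in ESR1KO females 1 and 2, described next (614 and 635, and 2658 and 3121 CPM). In ESR1KO females 3 to 5 these genes were at 1036 to 1088 and 4581 to 6074 CPM. The periportal *Cyp2f2* was also lower in ESR1KO females 1 and 2 (412 and 421 CPM) than in females 3 to 5 (670, 723 and 696 CPM). The periportal *Cdh1* did not set them apart (21.6 and 26.9 CPM, against 35.7, 24.5 and 27.1 CPM). The part of these markers in the levels below was not tested.

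A pair of libraries stood apart. In ESR1KO females 1 and 2, the level of a gene relative to the median library followed the GC content of its transcript, with r of -0.505 and -0.368 over 17645 genes, where the other 13 libraries lay between -0.063 and 0.151. Genes are not independent replicates, and these values describe the libraries. The median tested gene has a GC content of 48.8%, while *Cyp8b1* has 54.8%, *Cyp27a1* 53.5% and *Nr0b2* 57.8%, and the other 7 lie between 39.7% and 47.7%. For 4 genes (*Cyp8b1*, *Cyp27a1*, *Cyp7b1* and *Abcb11*) both of these females were below the 3 other ESR1KO females, and for 3 genes (*Cyp39a1*, *Baat* and *Nr1h4*) both were above them. The part of the GC trend in these levels was not tested directly. Values without both females, and with a correction for GC content, are given where they change a call. Both fits were added after seeing the data.

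**Figure D1:**
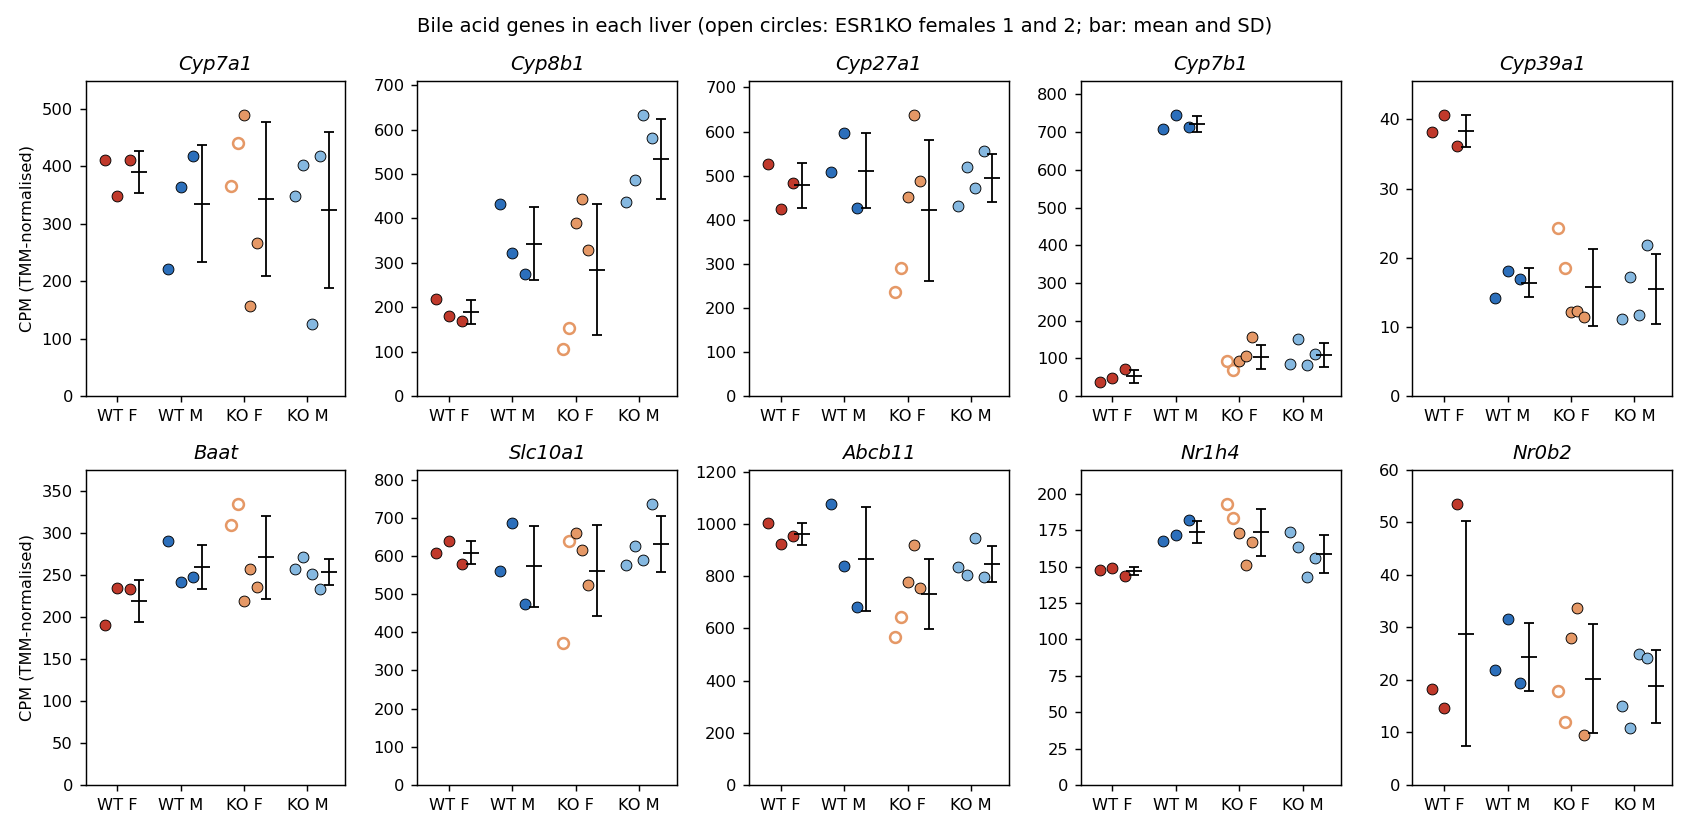
Expression level of each of the 10 genes in CPM (y axis, linear, from 0) in every liver of the 4 groups (x axis; F females, M males, KO ESR1KO). Each point is 1 mouse, the bar beside a group is its mean and SD, and open circles are ESR1KO females 1 and 2; only for *Cyp7b1* do the 3 WT males, at 707 to 746 CPM, sit far from every other mouse.

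*Cyp7b1*, on chromosome 3 (GRCm38, 18071950 to 18243338, minus strand), had the largest difference between groups of the 10 genes. The WT males were at 707, 746 and 713 CPM, and the WT females at 38.0, 48.2 and 72.4 CPM. The ESR1KO males were at 86.0, 152, 83.7 and 111 CPM, and the ESR1KO females at 93.3, 69.4, 94.6, 108 and 156 CPM. All 12 other mice lay below the lowest WT male, whereas ESR1KO females and ESR1KO males covered nearly the same range.

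The sex difference of *Cyp7b1* in WT livers was -3.77 (SE 0.31) on the log2 scale, females minus males, a 13.7-fold lower level, with an adjusted p of 4.36e-07. In ESR1KO livers it was -0.05 with a 95% interval of -0.53 to 0.43 (adjusted p = 0.919). The knockout lowered *Cyp7b1* in males, with a log2 fold change of -2.74 (SE 0.26, adjusted p = 4.99e-05), a 6.67-fold lower level, and the difference between the knockout effects of the sexes was 3.72 (SE 0.37, adjusted p = 1.49e-05). ESR1KO females lay below WT males by -2.79 on the log2 scale (adjusted p = 4.08e-06), the 1 gene of the 10 to pass there, against 2.61% of tested genes. These contrasts share groups of mice and are not independent of each other.

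In females the change of *Cyp7b1* was smaller and of the opposite sign. ESR1KO females averaged 104 ± 32.1 CPM (n = 5) against 52.9 ± 17.7 CPM in WT females (n = 3), a log2 fold change of 0.98 (SE 0.26, adjusted p = 0.0353). The groups overlapped by a single pair of mice, ESR1KO female 2 at 69.4 CPM below WT female 3 at 72.4 CPM. The call was lost when any of 3 mice was left out, with an adjusted p up to 0.155 without WT female 1, with the GC correction (adjusted p = 0.0658) and in a fit of these 2 groups alone (adjusted p = 0.0895). It was kept without ESR1KO females 1 and 2 (1.18, adjusted p = 0.0207). An exact 2-sided permutation test on log2 CPM gave p = 0.0714, where 0.0357 is the smallest p that 5 against 3 mice allow.

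WT females also lay below ESR1KO males for *Cyp7b1*, by a log2 difference of -1.03 (SE 0.27, adjusted p = 0.0254). That call passed in 11 of 15 fits with each mouse left out in turn, and was lost without WT female 1 (adjusted p = 0.111), WT female 2 (0.103), ESR1KO male 2 (0.0750) or ESR1KO male 4 (0.0520). From the lowest mean, the order of the groups was WT females, ESR1KO females, ESR1KO males and WT males. The middle pair did not differ beyond its spread.

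*Cyp39a1*, on chromosome 17 (43667425 to 43751431, plus strand), showed the opposite sex bias at a much lower level. The WT females were at 38.2, 40.7 and 36.1 CPM, and the WT males at 14.2, 18.1 and 17.0 CPM. The ESR1KO females were at 24.3, 18.6, 12.2, 12.4 and 11.4 CPM, and the ESR1KO males at 11.2, 17.2, 11.8 and 21.8 CPM. Every WT female was above every other mouse, and the 3 other groups overlapped.

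The WT sex difference of *Cyp39a1* was 1.22 (SE 0.27, adjusted p = 0.0130), females higher. With each mouse left out in turn it passed in 14 of 15 fits and failed without WT male 1 (adjusted p = 0.0759). In females *Cyp39a1* fell by 1.28 on the log2 scale with the knockout (SE 0.24, adjusted p = 0.00396), a call kept in all 15 such fits. The exact 2-sided permutation test gave p = 0.0357, the smallest that 5 against 3 mice allow. Adjusted over the 60 exact tests of the members, that p was 0.343. Groups without overlap always reach this smallest p, as *Abcb11* and *Nr1h4* also did in this comparison (p = 0.0357 each in the exact test). For *Cyp39a1*, ESR1KO males also lay below WT females (1.30, WT females minus ESR1KO males, adjusted p = 0.0042). In males the knockout effect was -0.08 (95% interval -0.62 to 0.46, adjusted p = 0.945).

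No sex difference of *Cyp39a1* was detected in ESR1KO livers (0.02, 95% interval -0.46 to 0.49, adjusted p = 0.977). The difference between the sexes in the knockout effect was -1.20 (SE 0.35) and did not pass (adjusted p = 0.107). It passed with the GC correction (-1.34, adjusted p = 0.0244), without ESR1KO females 1 and 2 (-1.60, adjusted p = 0.00641), with DESeq2 (adjusted p = 0.0322) and without the filter on low counts. With each mouse left out in turn it passed in only 1 of 15 fits, without ESR1KO female 1 (adjusted p = 0.0173). The adjusted p reached 0.254 without WT male 1. Without both females the remaining ESR1KO females averaged 11.99 ± 0.525 CPM (n = 3). These rest on 468, 599 and 755 counts, so counting error is not small beside that spread.

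**Figure D2:**
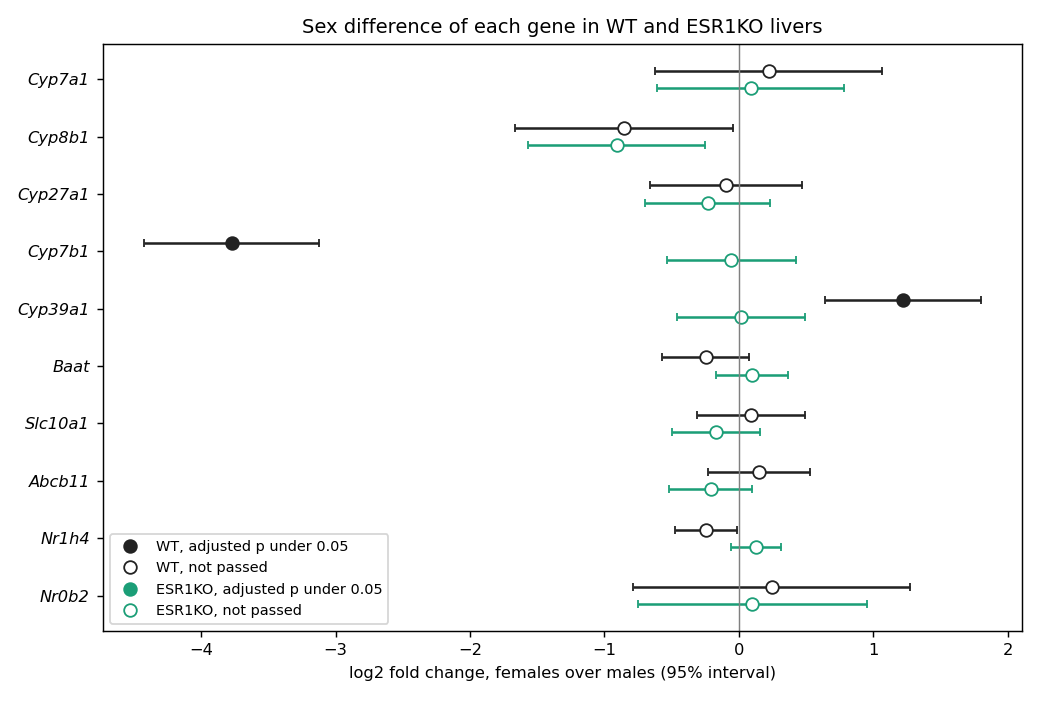
Log2 fold change of females over males (x axis) for each gene (y axis) in WT mice (black) and ESR1KO mice (green), from edgeR's model over all 15 mice, with 95% intervals; filled points passed at an adjusted p under 0.05. *Cyp7b1* at -3.77 and *Cyp39a1* at 1.22 passed in WT mice, and no gene passed in ESR1KO mice.

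Of the 10 genes, 2 passed in the WT sex comparison, and 4.87% of all tested genes passed there. The knockout passed for 2 genes in females (background 5.71%) and for 1 gene in males (1.42%), and the interaction passed for 1 gene (1.94%). In ESR1KO livers 0 of 10 genes passed between the sexes, with 1 at an unadjusted p under 0.05 and 0 with DESeq2, where the background was 0.272%. With the added rule of a log2 fold change of at least 1.5, *Cyp7b1* alone passed, in the WT sex comparison (background 1.81%), the knockout in males (0.578%), the interaction (1.09%) and ESR1KO females against WT males (0.816%). No gene of the 10 did between ESR1KO sexes (0.142%), for the knockout in females (1.2%) or between WT females and ESR1KO males (1.74%). At an unadjusted p under 0.05 the counts were 4 of 10 between WT sexes (17.3% of tested genes), 1 between ESR1KO sexes (17.5%), 5 for the knockout in females (22.5%) and 1 in males (11.9%). They were 3 for the interaction (14.3%), 1 for ESR1KO females against WT males (17.4%) and 3 for WT females against ESR1KO males (22.2%). The median log2 fold change of the 10 genes was -0.00 in the WT sex comparison and -0.15 for the knockout in females, where the medians of all genes were 0.01 and -0.00. With 10 genes, none of these counts is read as a result about the group. Between WT mice of different sex, 5 of the 10 genes had groups that did not overlap in CPM (*Cyp8b1*, *Cyp7b1*, *Cyp39a1*, *Baat* and *Nr1h4*), which 30.1% of tested genes did. Between ESR1KO mice of different sex 0 of 10 did not overlap, against 5.22%. For ESR1KO females and WT males it was *Cyp7b1* alone (9.91%), and for WT females and ESR1KO males *Cyp8b1*, *Cyp7b1* and *Cyp39a1* (29.1%).

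**Figure D3:**
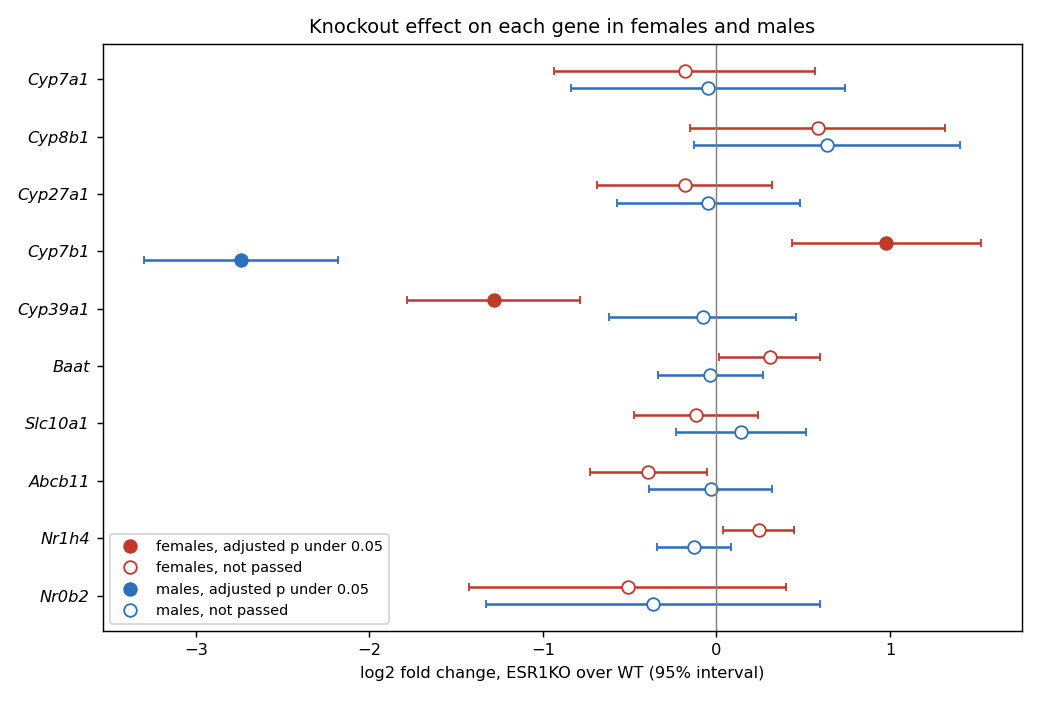
Log2 fold change of ESR1KO over WT (x axis) for each gene (y axis) in females (red) and males (blue), with 95% intervals from the same model; filled points passed at an adjusted p under 0.05. *Cyp7b1* passed with opposite signs in the sexes, at 0.98 in females and -2.74 in males, and *Cyp39a1* passed in females at -1.28.

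*Cyp8b1*, the enzyme of the cholic acid branch, is a gene of 1 exon on chromosome 9 (121914356 to 121916305, minus strand). The WT females were at 220, 180 and 170 CPM and the WT males at 433, 322 and 274 CPM. The ESR1KO females were at 107, 154, 389, 443 and 329 CPM and the ESR1KO males at 436, 485, 633 and 581 CPM. WT females and WT males did not overlap, nor did WT males and ESR1KO males, while ESR1KO females ranged from below every WT female to above every WT male. Between WT and ESR1KO males, *Cyp8b1* and *Cyp7b1* were the 2 of 10 genes without overlap, which 15.9% of tested genes showed.

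With all 15 mice, *Cyp8b1* passed in a single contrast, WT females minus ESR1KO males (-1.49, SE 0.37, adjusted p = 0.0214), where 3 of the 10 genes passed against 7.41% of tested genes. That call was kept in 12 of the 15 fits without 1 mouse and lost without WT female 3 (adjusted p = 0.103). The sex difference was -0.85 in WT (adjusted p = 0.261) and -0.91 in ESR1KO livers (adjusted p = 0.175), and the knockout effect was 0.58 in females (adjusted p = 0.336) and 0.64 in males (adjusted p = 0.541). In direction, males were above females in both genotypes, and ESR1KO mice above WT mice in both sexes, with none of these 4 differences past the threshold.

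The call between WT females and ESR1KO males was kept without ESR1KO females 1 and 2 (-1.49, adjusted p = 1.13e-04), and 2 contrasts that had not passed with all mice then did. Without both females, WT females were below WT males (-0.85, adjusted p = 0.00933) and the knockout raised *Cyp8b1* in females (1.03, adjusted p = 0.00591), with the 3 remaining ESR1KO females at 387 ± 57.0 CPM (n = 3). The knockout effect in males was then 0.64 (adjusted p = 0.0651) and the sex difference in ESR1KO livers -0.46 (adjusted p = 0.299). A fit of the 6 WT mice alone also passed for the WT sex difference (-0.85, adjusted p = 0.0244). ESR1KO females 1 and 2 are not in that comparison, and its estimate stayed at -0.85 in these fits. Only the estimate of the spread changed, so these passes add no further mice as evidence. The same holds for WT females against ESR1KO males. The GC correction with all mice kept did not bring the WT sex difference past the threshold (adjusted p = 0.138), nor the knockout effect in females (adjusted p = 0.235).

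The 250 bases before the start of *Cyp8b1* in RefSeq's GRCm38.p6 are chr9:121916306-121916555 on the minus strand. They are shown because the calls on *Cyp8b1* changed with the mice included. In the promoter table used here 6 of the 10 genes were matched, with 7 starts. *Cyp7a1*, *Cyp7b1*, *Cyp39a1* and *Baat* were not analysed here. The capitals mark CAAAGTCCA, a sequence bound by HNF4A, at -67 to -59 from the start.
Cyp8b1: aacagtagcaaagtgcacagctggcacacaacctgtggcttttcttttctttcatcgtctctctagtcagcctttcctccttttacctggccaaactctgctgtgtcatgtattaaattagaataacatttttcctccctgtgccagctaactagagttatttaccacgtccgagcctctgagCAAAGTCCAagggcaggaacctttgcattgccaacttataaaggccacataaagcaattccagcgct
These letters were searched for after the sequences had been seen, on both strands of windows from 250 bases before to 50 after the start, and 0.475% of the 32851 promoter windows of that length hold them. A match is a description and not evidence of binding in these livers.

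*Cyp7a1*, the rate-limiting enzyme of the classic route, lies on chromosome 4 (6265612 to 6275633, minus strand). It was at 411, 348 and 411 CPM in WT females, at 221, 364 and 418 CPM in WT males, at 366, 440, 489, 157 and 266 CPM in ESR1KO females and at 347, 402, 126 and 418 CPM in ESR1KO males. It passed in none of the 7 contrasts, with adjusted p values of at least 0.724. The ranges of all 4 groups overlapped, and 3 groups held 1 mouse each with a level far below the others. The intervals were wide: the sex difference in WT livers was 0.22 (95% interval -0.62 to 1.07), and the knockout effect was -0.18 in females (-0.93 to 0.57) and -0.05 in males (-0.84 to 0.74). Changes of a size within these intervals are not excluded by these data.

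The mouse with the lowest *Cyp7a1* in WT males (mouse 1, 221 CPM), in ESR1KO females (mouse 4, 157 CPM) and in ESR1KO males (mouse 3, 126 CPM) had, in its own group, the highest *Cyp8b1*, the highest *Abcb11* and the lowest *Nr1h4*. The same 3 mice had the lowest *Per1* and *Per2* and the highest *Arntl* of their groups, genes of the circadian clock. *Per2* was at 29.4, 27.3 and 22.01 CPM in them, against 37.0 to 57.2 CPM in the other 9 mice of these groups. Not all of the 12 clock genes examined went this way. *Nr1d1* was lowest of its group in WT male 1, in between in ESR1KO female 4 and highest in ESR1KO male 3. *Dbp* was lowest in WT male 1 and in between in the ESR1KO mice. In WT females, whose *Cyp7a1* spread was small, the mouse with the lowest level (mouse 2) had the middle *Cyp8b1*, the lowest *Abcb11*, the highest *Nr1h4* and *Per1* and the lowest *Arntl*. WT female 1, with the lowest *Per1* and *Per2* and the highest *Arntl* of its group, had *Cyp7a1* at 411 CPM, so WT females did not share the pattern. This pattern was picked out after the values had been seen, the time of day of collection is not given in the sources used here, and the part of the clock genes in it was not tested.

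Over all 15 mice, after the mean of its group was taken from each mouse, the log2 level of *Cyp7a1* had r = 0.824 with *Per2*, 0.758 with *Nr1h4* and -0.667 with *Abcb11*, and lower values of 0.532 with *Per1* and -0.450 with *Cyp8b1*. Without ESR1KO females 1 and 2 these were 0.809, 0.811, -0.695, 0.531 and -0.548 (n = 13). With the other clock genes examined, *Cyp7a1* had r over all 15 mice of 0.720 (*Cry1*), -0.699 (*Arntl*), 0.562 (*Ciart*), 0.436 (*Per3*) and -0.378 (*Nr1d1*). Values nearer 0 were 0.232 (*Nr1d2*), -0.167 (*Clock*), -0.092 (*Npas2*), -0.070 (*Dbp*) and 0.041 (*Tef*). *Cyp8b1* had r = 0.843 with *Abcb11* and -0.810 with *Nr1h4*, and 0.812 and -0.712 without both females. These values describe the mice, which share a library, a scaling and their group means between genes. The value of 0.898 between *Cyp8b1* and *Cyp27a1* rested more on the 2 females, being 0.498 without them.

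**Figure D4:**
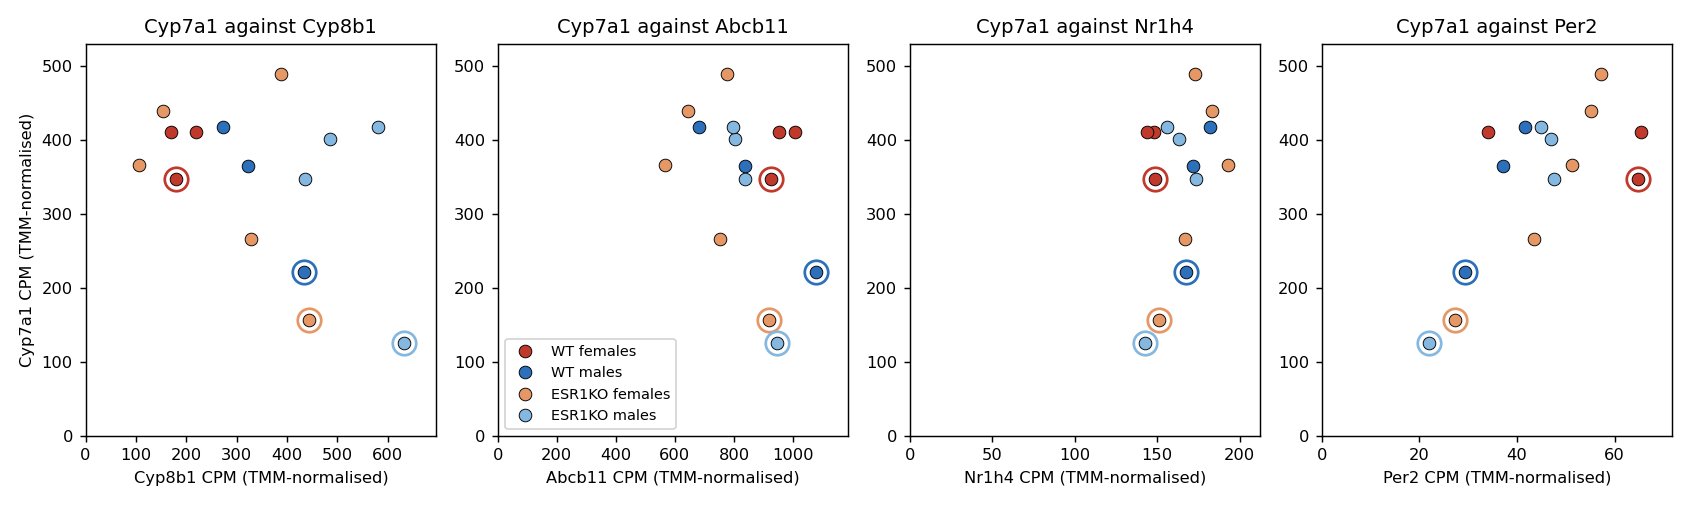
*Cyp7a1* in CPM (y axis) against *Cyp8b1*, *Abcb11*, *Nr1h4* and *Per2* in CPM (x axes, 1 panel each, all axes linear from 0), 1 point per mouse, coloured by group. Rings mark the mouse with the lowest *Cyp7a1* of each group; those of WT males, ESR1KO females and ESR1KO males, at 221, 157 and 126 CPM, have the highest *Cyp8b1* and *Abcb11* and the lowest *Nr1h4* and *Per2* of their groups.

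*Cyp27a1*, the mitochondrial enzyme of the alternative route, lies on chromosome 1 (74713574 to 74737892, plus strand). The WT females were at 527, 425 and 483 CPM, the WT males at 509, 597 and 427 CPM and the ESR1KO males at 431, 520, 473 and 555 CPM. The ESR1KO females were at 237, 291, 452, 638 and 488 CPM, the first 2 being ESR1KO females 1 and 2 and the lowest of all 15 mice. No contrast passed (adjusted p of at least 0.567), and the knockout effect in females went from -0.18 (adjusted p = 0.687) to 0.14 without those 2 mice (adjusted p = 0.655).

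**Figure D5:**
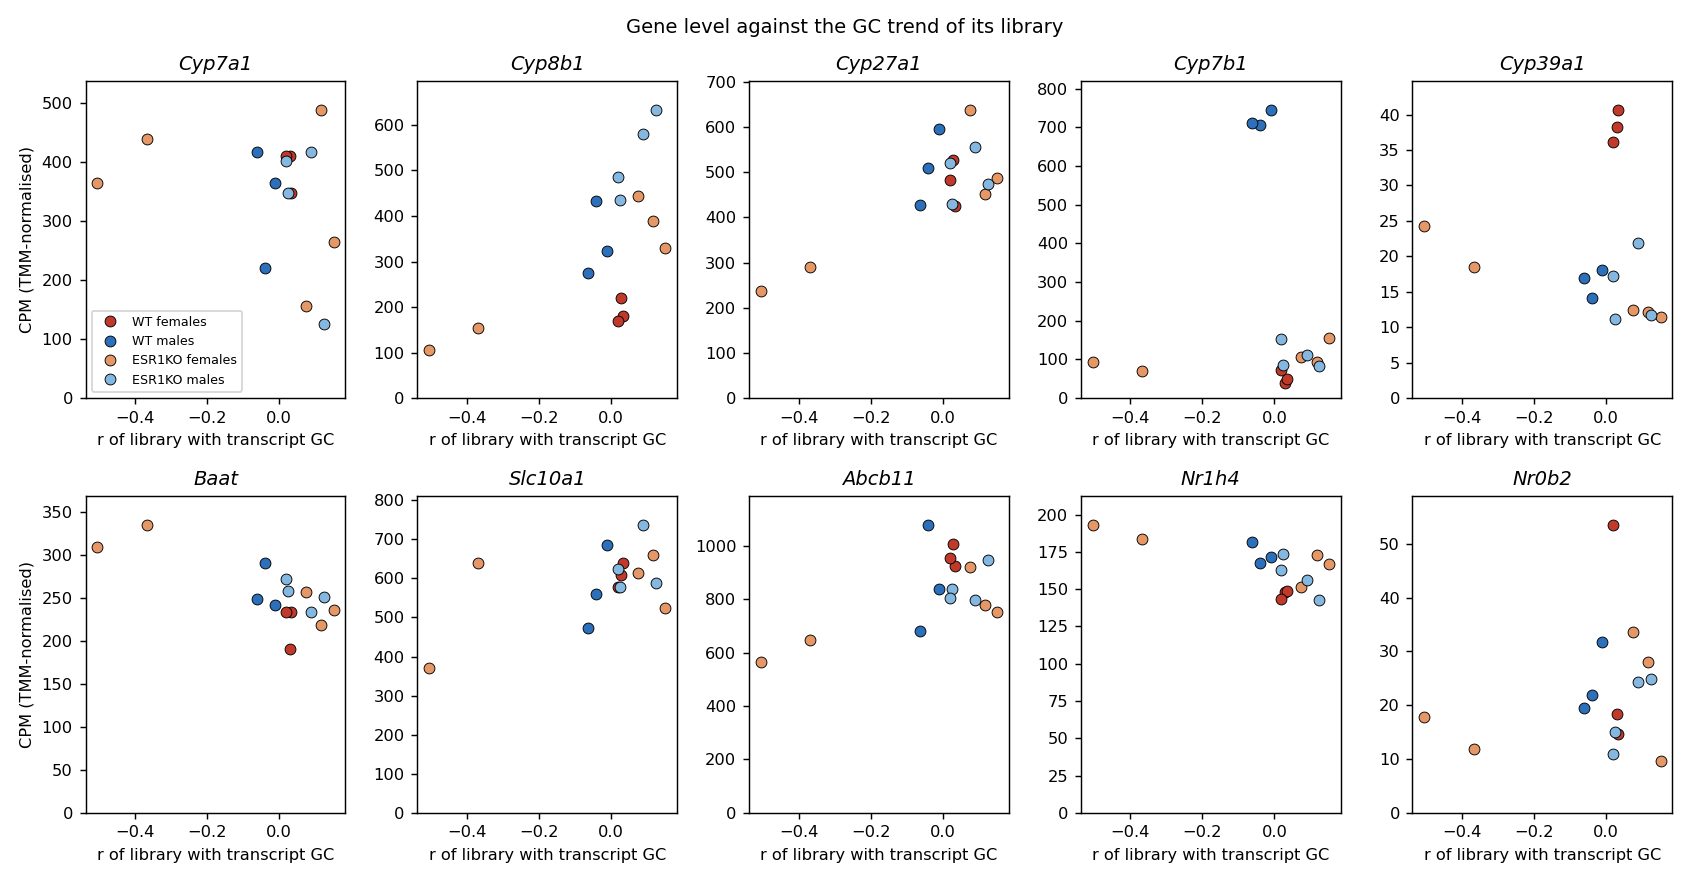
Level of each gene in CPM (y axes, linear, from 0) against the correlation of its library with transcript GC content over 17645 genes (x axes), 1 point per mouse, coloured by group. ESR1KO females 1 and 2, at r of -0.505 and -0.368, lie to the left of the other 13 libraries and hold the 2 lowest levels of *Cyp8b1*, *Cyp27a1* and *Abcb11* and the 2 highest of *Baat* and *Nr1h4*.

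*Baat*, on chromosome 4 (49489422 to 49506557, minus strand), passed in no contrast. It was at 191, 234 and 233 CPM in WT females, at 290.0, 242 and 248 CPM in WT males, at 309, 335, 219, 257 and 236 CPM in ESR1KO females and at 258, 271, 251 and 234 CPM in ESR1KO males. The WT sexes did not overlap, although the test gave an adjusted p of 0.452 for a log2 difference of -0.25. The knockout effect in females was 0.31 (adjusted p = 0.201), and 0.11 without ESR1KO females 1 and 2 (adjusted p = 0.585).

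Neither of the transporters of the 10 passed in any contrast. *Slc10a1*, on chromosome 12 (80953183 to 80968705, minus strand), averaged 609 ± 30.9 CPM in WT females (n = 3), 573 ± 107 in WT males (n = 3), 562 ± 118 in ESR1KO females (n = 5) and 632 ± 73.3 in ESR1KO males (n = 4). Its lowest mouse was ESR1KO female 1 at 371 CPM and its highest ESR1KO male 4 at 738 CPM, and all pairs of groups overlapped. No contrast passed, with adjusted p values of at least 0.571.

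*Abcb11*, on chromosome 2 (69238282 to 69342616, minus strand), was at 1006, 924 and 953 CPM in WT females and at 565, 645, 777, 918 and 753 CPM in ESR1KO females. Every ESR1KO female was below every WT female, but the log2 difference of -0.39 (SE 0.16) did not pass (adjusted p = 0.153) and was -0.24 without ESR1KO females 1 and 2 (adjusted p = 0.383). In the males *Abcb11* was at 1079, 838 and 681 CPM in WT mice and at 837, 803, 946 and 796 CPM in ESR1KO mice, with a knockout effect of -0.03 (adjusted p = 0.970). An antisense transcript, *Gm13613*, shares 136 bases of exon with *Abcb11*, and the strand setting of the counting is not given in the sources used here.

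*Nr1h4*, on chromosome 10 (89454234 to 89533585, minus strand), varied least. The WT females were at 148, 149 and 144 CPM, the WT males at 168, 172 and 182 CPM, the ESR1KO females at 193, 184, 173, 151 and 167 CPM and the ESR1KO males at 174, 163, 143 and 156 CPM. WT females lay below WT males and below ESR1KO females without overlap. Neither difference passed, at -0.24 between the WT sexes (adjusted p = 0.257) and 0.24 for the knockout in females (adjusted p = 0.152), and the latter was 0.16 without ESR1KO females 1 and 2 (adjusted p = 0.306). Of the 10 genes, 3 had ESR1KO and WT females without overlap (*Cyp39a1*, *Abcb11* and *Nr1h4*), against 15.6% of tested genes.

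*Nr0b2*, on chromosome 4 (133553376 to 133556536, plus strand), was low and variable. It was at 18.3, 14.6 and 53.6 CPM in WT females, at 21.9, 31.7 and 19.4 CPM in WT males, at 17.9, 11.9, 28.0, 33.7 and 9.58 CPM in ESR1KO females and at 15.1, 10.8, 24.9 and 24.2 CPM in ESR1KO males. WT female 3 alone set the mean of its group, 28.8 ± 21.5 CPM (n = 3), and the order of groups turned with it. No contrast passed, and the 95% interval of the knockout effect in females ran from -1.42 to 0.40.

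The 250 bases upstream of *Abcb11* and *Nr0b2* are shown because both are targets of NR1H4, whose usual site is an inverted repeat with 1 base between (AGGTCANTGACCT). They are chr2:69342617-69342866 on the minus strand and chr4:133553126-133553375 on the plus strand (GRCm38.p6, RefSeq). The capitals mark a single AGGTCA site, read on the other strand, at -56 to -51 in *Abcb11* and TTCNNNGAA, a STAT5 motif, at -91 to -83 in *Nr0b2*.
Abcb11: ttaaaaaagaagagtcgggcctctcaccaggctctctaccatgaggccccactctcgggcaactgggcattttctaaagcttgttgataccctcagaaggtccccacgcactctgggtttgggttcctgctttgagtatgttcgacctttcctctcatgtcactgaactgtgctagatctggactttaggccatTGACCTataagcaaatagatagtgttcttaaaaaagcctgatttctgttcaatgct
Nr0b2: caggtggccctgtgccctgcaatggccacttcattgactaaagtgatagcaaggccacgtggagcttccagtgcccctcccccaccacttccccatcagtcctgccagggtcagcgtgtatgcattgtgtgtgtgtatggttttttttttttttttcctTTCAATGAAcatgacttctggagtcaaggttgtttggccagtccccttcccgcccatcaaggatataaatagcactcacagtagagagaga
On either strand the AGGTCA site is held by 16.3% and the STAT5 motif by 8.3% of the 32851 promoter windows. An exact inverted repeat or palindrome GGTCANNNTGACC of ESR1 was in none of the 7 windows, which says only that these letters are not there. The inverted repeat was in 0.00913% and the palindrome in 0.07% of the promoters. The AGGTCA site also matched once in *Nr1h4* and once in a second start of *Slc10a1*, and the STAT5 motif once in the first start of *Slc10a1*.

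Levels of different genes were compared per kilobase of exon. In WT males *Cyp7b1* was the highest of the 10 at 333 ± 9.58 CPM per kb (n = 3), above *Slc10a1* at 261 ± 48.6 and *Cyp27a1* at 235 ± 39.1. In WT females it was at 24.4 ± 8.15 CPM per kb (n = 3), near *Nr0b2* at 25.5 ± 19.0 and above *Cyp39a1* alone at 12.6 ± 0.743. In the ESR1KO groups *Cyp7b1* stood at 48.1 ± 14.8 CPM per kb in females (n = 5) and 49.95 ± 14.7 in males (n = 4), between *Nr1h4* and *Nr0b2* in both. *Slc10a1* was the highest of the 10 in WT females (277 ± 14.1), ESR1KO females (255 ± 53.8) and ESR1KO males (288 ± 33.3), the last beside *Cyp8b1* at 274 ± 45.8.

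Genes most like each called gene in pattern were sought among all tested genes by Pearson's r of log2 CPM over the 15 mice, as a description. *Cyp7b1* was most like *Selenbp2* (r = 0.972), *Serpina1e* (0.957) and *Capn8* (0.949), the last of which ranked only 99 by Spearman's rho. *Selenbp2*, which encodes a selenium-binding protein, averaged 10.87 in WT males, 6.90 in WT females, 7.50 in ESR1KO females and 7.96 in ESR1KO males on the log2 CPM scale. *Serpina1e* belongs to a family of near-identical copies, so its counts are uncertain. Shared sequence was examined for the members only, not for *Selenbp2* or the other genes found alike. *Cyp39a1* was most like *Sult1d1* (0.916), a sulfotransferase gene, the transcript *AC102159.1* (0.903) and *Zfp820* (0.891), the last ranking 39 by Spearman's rho. *Cyp8b1* was most like *Trap1* (0.965), *Anxa7* (0.959) and *Entpd5* (0.954), and ranking by Spearman's rho put none of these 3 among the first 3.

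Another 43 genes of bile acid handling were read beside the 10, of which 39 were tested. Between the sexes of WT mice 6 of 39 passed, 3 higher in females (*Akr1d1*, *Slco1a4* and *Nr1i3*) and 3 lower (*Scp2*, *Acox2* and *Slco1a1*), against 4.87% of all tested genes. The median log2 fold change was 0.12 over the 39 and 0.01 over all tested genes. In ESR1KO mice 0 of 39 passed between the sexes (background 0.272%), with 2 with DESeq2 and 7 at an unadjusted p under 0.05, a share near the 17.5% of all tested genes. For the knockout in females 2 rose (*Scp2* and *Slco1a1*) and 2 fell (*Abcg5* and *Slc51b*), against 5.71% of all tested genes. That count of 4 became 2 without WT female 1 or WT female 3 and 7 without ESR1KO female 5. In males 0 of 39 passed (background 1.42%), with 2 with DESeq2 and 6 at an unadjusted p under 0.05 (background 11.9%).

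Of the other synthesis genes, *Scp2*, a sterol carrier protein whose longer form is the thiolase of side chain shortening, was at 1252 ± 179 CPM in WT females (n = 3) and 4362 ± 424 in WT males (n = 3). It was at 3798 ± 273 in ESR1KO females (n = 5) and 3961 ± 585 in ESR1KO males (n = 4), so that WT females stood apart from all other mice, as they did for *Cyp39a1* but in the other direction. The knockout raised it in females by 1.60 (adjusted p = 4.47e-06), and the interaction was 1.74 (adjusted p = 8.09e-05). *Akr1d1*, a steroid reductase of bile acid synthesis, was higher in WT females by 1.03 (adjusted p = 0.0051), and *Acox2*, the peroxisomal branched chain oxidase, was lower (-0.76, adjusted p = 0.0142).

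Among the other transporters, the uptake carrier *Slco1a1* was at 374 ± 68.0 CPM in WT females (n = 3), 968 ± 29.96 in WT males (n = 3), 1026 ± 377 in ESR1KO females (n = 5) and 700 ± 133 in ESR1KO males (n = 4). Its knockout effect in females was 1.46 (adjusted p = 0.00156) and its interaction 1.93 (adjusted p = 0.00337). *Slco1a4*, a related carrier, had the opposite sex bias in WT mice (1.74, adjusted p = 0.0105), and its fall in ESR1KO females did not pass with all mice (-0.98, adjusted p = 0.0834) but did without ESR1KO females 1 and 2 (-1.48, adjusted p = 0.0152). *Abcg5*, of the sterol exporter, fell in ESR1KO females (-0.49, adjusted p = 0.0282), not without those 2 mice (adjusted p = 0.0843). *Slc51b* fell too (-1.67, adjusted p = 0.0236), from 0.497 ± 0.0915 CPM in WT females (n = 3) to 0.164 ± 0.0924 (n = 5). These levels rest on 18 to 28 counts per library in WT females and 3 to 10 in ESR1KO females, so counting error adds to their spread.

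Of the other regulators only *Nr1i3*, the receptor CAR, passed in these comparisons, with 0.95 between the WT sexes (adjusted p = 0.0202). It shares 3304 bases of exon with *Tomm40l* on the opposite strand, so that without a known strand setting its counts are uncertain. *Abcg5* shares 82 bases with *Abcg8* and *Slc51b* 91 bases with *Rasl12* in the same way. Of the 10 genes, 8 had no stretch of 50 bases in their transcripts in common with another gene, *Abcb11* shared 1.68% and *Slc10a1* 0.957% of such stretches.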

How the data were processed

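Liver RNA of 15 mice, depleted of ribosomal RNA, was sequenced as paired ends, 1 library per mouse. Per the labels and the submitters' processing notes, the authors trimmed reads with Trimmomatic 0.36, aligned them with STAR to GRCm38 and counted reads per gene with HTSeq 0.6.0. The deposited values are raw counts per gene, not normalized. Which annotation release was used, whether counting used strand and how reads with several alignments were handled is not given in the sources used here. Libraries short of reads were sequenced again, and which ones is not given.

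Groups came from the labels. Total counts were 27799061 to 78624766 per library. Of 55573 genes, 17655 passed edgeR's filterByExpr and were tested with its quasi-likelihood F test (edgeR 4.0.16, R 4.3.3) after TMM scaling (factors 0.957 to 1.04), in 1 model of 4 groups over all 15 libraries, with Benjamini-Hochberg adjustment over all tested genes within a contrast. CPM on the log2 scale used a prior count of 2. No 2 replicates were the same library (chi-square per gene of at least 24.7). Exact permutation tests were 2-sided, on log2 CPM, doubling the smaller tail. The alternatives were DESeq2 1.42.0, other scalings and filters, fits of the compared groups alone, a replicate block, leaving out each mouse, a fold rule and an unadjusted p. A correction for GC content and a fit without ESR1KO females 1 and 2 were added after seeing the data. The procedure was tested on simulated data.

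The members and lists were chosen with earlier results of these data known. All 10 genes were named in every group. Of the other pathway genes, those passing a sex, knockout or interaction test were named, at most 4 per role, as were the 3 genes most alike to each called member, and *Esr1*. The clock genes were named after their values were seen. Gene positions and exon overlaps came from a GRCm38 annotation and promoter sequences from RefSeq's GRCm38.p6, which may differ from the annotation the authors used.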

Additional observations from a re-analysis of the deposited data

Results flagged for a closer look

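The effect of the knockout on *Cyp7b1* differed between the sexes. On the log2 scale, the change in ESR1KO females exceeded the change in ESR1KO males by 3.72 (adjusted p = 1.49e-05, the interaction term of edgeR's quasi-likelihood test), and it passed in 15 of 15 fits with each mouse left out in turn.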

How the results depend on the processing

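Of the 10 genes, those called in the WT sex comparison numbered 2, against 1 with the rule of a log2 fold change of at least 1.5 and 4 at an unadjusted p under 0.05. Between ESR1KO sexes the unadjusted count was 1. For the knockout in females the 2 calls became 1 with a replicate block, with only the groups compared and with the GC correction, 0 with the fold rule and 5 unadjusted. The interaction count of 1 became 2 with DESeq2, without the filter, with the GC correction and without ESR1KO females 1 and 2, and 3 unadjusted, and that of WT females against ESR1KO males went from 3 to 0 with the fold rule. Of the other pathway genes, the count in the WT sex comparison was 6, against 13 with only the groups compared or unadjusted, 12 without both females and 2 with the fold rule. Between ESR1KO sexes it was 0, against 2 with DESeq2 and 7 unadjusted. For the knockout in females it was 4, against 2 with only the groups compared or the fold rule, 7 with the GC correction or without both females and 16 unadjusted. In males it was 0, against 2 with DESeq2, 3 without the filter, 1 with only the groups compared, with the GC correction or without both females, and 6 unadjusted. For the interaction it was 2, against 4 without the filter or with the GC correction, 5 without both females and 12 unadjusted. For ESR1KO females against WT males it was 1, against 3 with DESeq2, 2 without the filter, with the replicate block or without both females, 0 with the fold rule and 7 unadjusted, and for WT females against ESR1KO males 10, against 2 and 16 with the last 2 rules. Leaving out 1 mouse gave 1 to 2 of the 10 genes in the WT sex comparison, the knockout in females and the interaction, 1 to 3 for WT females against ESR1KO males, 0 throughout between ESR1KO sexes and 1 throughout elsewhere. For the other pathway genes it gave, in the order above, 4 to 7, 0 to 1, 2 to 7, 0 to 2, 2 to 3, 0 to 1 and 1 to 12.

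Replicate numbers did not pair the mice (r of -0.19 to 0.14 over 19 pairs, 1 above 0.1), so the replicate block is given here alone. With it *Cyp7b1* in females (adjusted p = 0.0742) and *Cyp8b1* between WT females and ESR1KO males (adjusted p = 0.0577) did not pass.

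Signs turned only for differences that had not passed. The values here are for the sex, knockout and interaction contrasts. Of the 20 differences in the 2 contrasts across both sex and genotype, 8 turned with 1 mouse left out, from -0.19 to 0.23 for *Cyp7a1* in ESR1KO females minus WT males and from -0.19 to 0.93 for *Nr0b2* in WT females minus ESR1KO males among them. Another fit (DESeq2, the GC correction, without both females, the block or only the groups compared) turned 8, such as *Cyp8b1* in ESR1KO females minus WT males (-0.27, and 0.17 without both females), and 0 of those that turned had passed. With the GC correction *Cyp7a1* was at -0.10 and *Cyp39a1* at -0.10 between ESR1KO sexes, and the interaction was 0.047 for *Cyp8b1* and 0.016 for *Nr0b2*. Without ESR1KO females 1 and 2 the values between ESR1KO sexes were -0.089 for *Cyp7a1*, 0.089 for *Cyp27a1*, 0.14 for *Cyp7b1*, -0.38 for *Cyp39a1* and -0.10 for *Baat*, the knockout effect of *Cyp27a1* in females was 0.14, and the interaction was 0.39 for *Cyp8b1*, 0.18 for *Cyp27a1* and 0.079 for *Nr0b2*. With the block *Cyp7a1* was at 0.064 for the knockout in males, and *Nr0b2* at -0.041 between WT sexes and 0.30 for the interaction. Without the filter the *Cyp8b1* interaction was 0.014, and scaled by total counts *Cyp7b1* was at 0.0028 between ESR1KO sexes. Leaving out 1 mouse turned 20 differences in the sex, knockout and interaction contrasts. They were *Cyp7a1* between WT sexes (-0.0044 to 0.41), between ESR1KO sexes (-0.18 to 0.27), for the knockout in females (-0.34 to 0.00075) and males (-0.27 to 0.22) and the interaction (-0.40 to 0.091), *Cyp8b1* for the interaction (-0.27 to 0.15), and *Cyp27a1* between WT sexes (-0.21 to 0.031), for the knockout in males (-0.16 to 0.080) and the interaction (-0.34 to 0.013). Between ESR1KO sexes *Cyp7b1* ran from -0.25 to 0.16 and *Cyp39a1* from -0.20 to 0.23. For the knockout in males *Cyp39a1* ran from -0.30 to 0.039, *Baat* from -0.086 to 0.050 and *Abcb11* from -0.18 to 0.15. *Slc10a1* ran from -0.032 to 0.24 between WT sexes and from -0.18 to 0.00070 for the knockout in females, and *Nr0b2* from -0.56 to 0.56 between WT sexes, -0.17 to 0.28 between ESR1KO sexes, -0.83 to 0.29 for the knockout in females and -0.46 to 0.66 for the interaction. The cause was not tested. The lowest count of any of the 10 genes in a library was 309.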
